A study of Saccharomyces cerevisiae with 12 samples.

Results

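The comparison described here set a budding yeast (Saccharomyces cerevisiae) strain that carries, by its label, an S10D construct of histone H3 against a reference strain, both after 3 hours in estradiol (E2). It uses 6 of the 12 RNA-seq libraries of the series, chosen by their labels, with 3 libraries per strain. All genes were compared: of 7127 features in the deposited count table, 5939 had enough counts to be tested. The other 6 libraries came from the same strains in ethanol (EtOH) and are used where they bear on the E2 values.

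All groups share mating type a, the centromere of chromosome IV (CEN4) between lox sites with KanMX, and a creEBD78 recombinase gene behind GDP with LEU2 as marker. The reference strain is otherwise labelled leu2-delta-0, his3-delta-1, met15-delta-0 and ura3-delta-0, where MET15 is the older name of MET17. The other strain, called S10D-labelled here, carries hht2-hhf2::[HHT-S10D-HHFS]-URA3, the labelled change at the histone genes. It also carries TetO and TRP1 at TRP1, LacO and hphNT1 at LYS4, LacR-GFP and HIS3 at HIS3, and TetR-mRFP. Its label ends in bar1-delta, Ade1 and leu2-x. The strains therefore differ at many loci besides the histone construct, so S10D and the rest of the strain background cannot be told apart. Whether a strain's libraries stem from separate cultures is not in the labels, and p-values therefore reflect only how far these libraries spread, which may be technical. A strain without lox sites at CEN4 was not analysed here, and the counts do not show the excision or the histone residue itself.

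Serine 10 of histone H3 is phosphorylated in mitosis by Aurora B kinase, Ipl1 in yeast, which works with Sli15, Bir1 and Nbl1, and the phosphatase Glc7 opposes it. In budding yeast the phosphorylated residue is linked to recruitment of the deacetylase Hst2 and to compaction of mitotic chromatin, and aspartate is commonly used to mimic the phosphate charge. Estradiol switches on Cre when that recombinase carries an estrogen-binding domain, and the enzyme can then cut out the DNA between lox sites, so that the chromosome loses its centromere.

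The 6 E2 libraries held 9399734 to 11732921 counts each. Levels are given as CPM, read counts scaled to library totals and adjusted by TMM, a normalization that balances library composition. Differences are log2 fold changes, S10D-labelled minus reference, each with its standard error (SE) and n = 3 libraries per strain throughout. A gene is called, and then written as higher or lower, at a Benjamini-Hochberg adjusted p under 0.05 in edgeR's quasi-likelihood test over all genes tested. The replicates of a strain were close, with a common biological coefficient of variation of 3.21%.

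Between the strains, 3932 of 5939 genes were called (66.2%), 1913 higher (32.2%) and 2019 lower (34%) in the S10D-labelled strain. Most differences were small. The median log2 fold change over all genes was -0.01, with quartiles of -0.24 and 0.19. A difference of at least 2-fold was called for 424 genes (7.14%), 163 higher (2.74%) and 261 lower (4.39%). The libraries of both strains did not overlap for 4092 genes (68.9%). With so many genes called, a list of genes is read below against these shares and against the median of all genes.

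**Figure D1:**
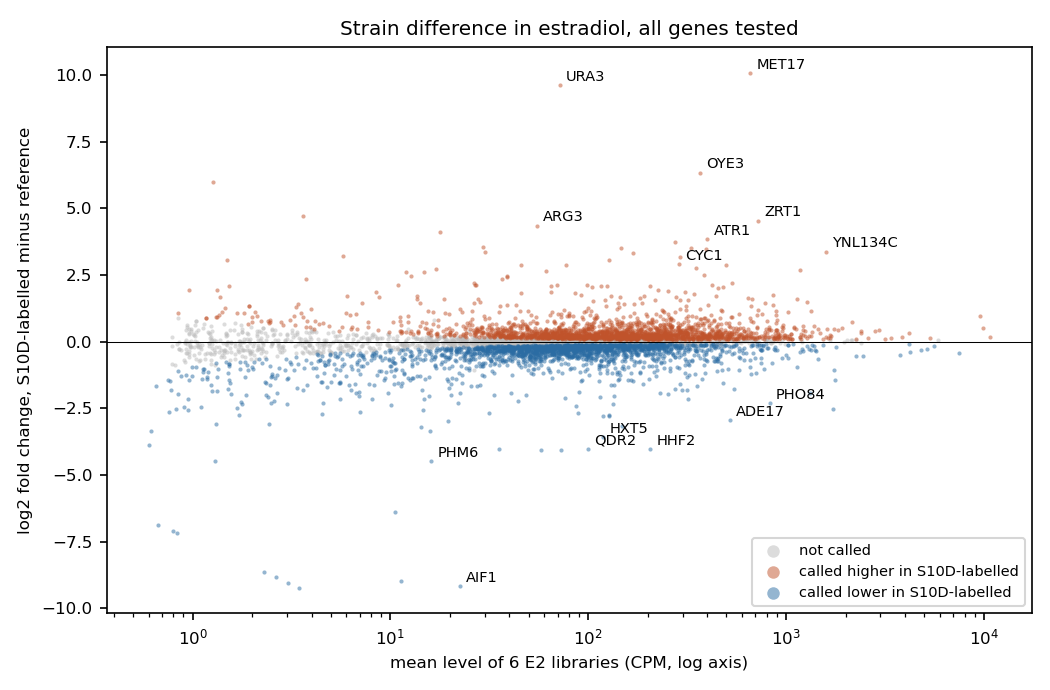
Strain difference of each tested gene in E2 (log2 fold change, vertical axis) against its mean level over the 6 libraries (CPM, log axis). The quartiles lie at -0.24 and 0.19, while MET17 (10.09), URA3 (9.62) and OYE3 (6.34) stand far above and AIF1 (-9.15) far below.

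Genes that the genotype labels name were examined first. URA3, of uracil synthesis, had 5, 1 and 0 counts in the reference libraries and 1345, 1529 and 1362 in the S10D-labelled libraries. Over the group totals this was a ratio of 841 with a 95% counting interval of 386 to 2292. MET17, which makes homocysteine from sulfide, stood at 1.23, 0.97 and 1.37 CPM in the reference and 1332, 1312 and 1293 CPM in the S10D-labelled strain. Both follow the labels, which name a deletion of each in the reference strain. The label of the other strain names URA3 as part of the histone construct and no deletion of MET17. It does not describe the URA3 locus itself, so the origin of the URA3 reads was not determined. MET17 overlaps YLR302C on the opposite strand.

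HIS3, of histidine synthesis, had 54.8, 63.6 and 53.7 CPM in the reference, where its label names the his3-delta-1 allele, and 526, 512 and 539 CPM in the S10D-labelled strain (3.20 ± 0.05). LEU2, of leucine synthesis, is the marker of the recombinase gene in both strains and had the lower level in the S10D-labelled one (-0.59 ± 0.06). TRP1, of tryptophan synthesis, was higher (1.68 ± 0.04), from 68.5 to 220.1 CPM on average. LYS4, of lysine synthesis, into which LacO is labelled as placed, was higher too (0.90 ± 0.04). ADE1, of purine synthesis, was lower (-1.82 ± 0.04). BAR1, whose protease breaks down alpha factor, had 346, 353 and 336 CPM in the S10D-labelled libraries, although the label names its deletion. The reference libraries had 596, 602 and 597 CPM, all above these (-0.79 ± 0.04).

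Of the core histone genes, HHF2, at the locus of the construct, differed most. Yeast has a pair of genes for each core histone, and H3 and H4 are divergently transcribed as HHT1 with HHF1 and HHT2 with HHF2. HHF2, an H4 gene, stood at 380, 390 and 389 CPM in the reference and at 25.7, 21.1 and 25 CPM in the S10D-labelled strain (-4.02 ± 0.05). HHT2, an H3 gene, stood at 711, 697 and 735 CPM against 254, 234 and 243 CPM (-1.55 ± 0.04). The other H3 and H4 pair was higher: HHF1 went from 394, 386 and 403 to 1339, 1265 and 1352 CPM (1.74 ± 0.04), and HHT1 from 435, 399.9 and 421 to 1178, 1088 and 1151 CPM (1.44 ± 0.04). For none of these 4 genes did the libraries of the strains overlap, which held for 68.9% of all genes tested. Copies of H3 or of H4 resemble each other in sequence, and how well reads were told apart between the copies was not tested.

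The H2A and H2B genes differed less. HTB2, an H2B gene, was higher by 0.34 ± 0.04, HTA2 by 0.13 ± 0.04 and HTB1 by 0.11 ± 0.04, while HTA1 was not called (-0.02 ± 0.04). HTA2 lost its call in the fit of 12 libraries (0.14, adjusted p = 0.141 in edgeR) and without reference replicate 3 (0.10, adjusted p = 0.0529). HTB1 lost it without S10D-labelled replicate 3 (0.091, adjusted p = 0.0801 in edgeR). Of 8 core histone genes, 5 were called higher, 2 lower and 1 not called, with a median of 0.12. Their summed level lay between 4200 and 4289 CPM in the reference libraries and between 5104 and 5378 CPM in the S10D-labelled libraries.

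The list of Aurora B and serine 10 genes, which also holds SGO1 and BUB1, showed small differences. SGO1, the shugoshin that guards centromeric cohesion, was lowest of the 9 (-0.45 ± 0.06), with 54.2, 58.4 and 54.6 CPM in the reference and 41.3, 37.9 and 43.8 CPM in the S10D-labelled strain. IPL1 was lower too (-0.36 ± 0.10), from 16.6, 17.9 and 17.9 CPM to 14.7, 12.4 and 13.8 CPM. Its activator gene SLI15 (-0.20 ± 0.06) and BUB1 (-0.20 ± 0.07), the kinase that marks centromeric H2A, were lower as well. The libraries of both strains did not overlap for any of these 4 genes. That held for 6 of the 9 listed, near the share of 68.9% over all genes tested. GLC7, the opposing phosphatase, was higher (0.16 ± 0.04), as was HST2 (0.21 ± 0.04). The phosphatase regulator SDS22 (-0.06 ± 0.05) and the complex members NBL1 (-0.04 ± 0.10) and BIR1 (-0.02 ± 0.05) were not called. SLI15 lost its call without reference replicate 2 (-0.15, adjusted p = 0.052 in edgeR) and HST2 in the fit of 12 libraries (0.21, adjusted p = 0.134). BUB1 lost it in that fit, in DESeq2, without S10D-labelled replicate 1 (-0.18) and without reference replicate 1 (-0.15).

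Genes for the rest of mitotic chromosome structure leaned lower. Of 17 genes of condensin, topoisomerase II and cohesin, 9 were lower, 0 higher and 8 not called, with a median of -0.23, which stood at -0.11 without the members on chromosome IV. MCD1, the cleavable cohesin subunit, went from 209, 231 and 216 CPM to 132, 124 and 129 CPM (-0.77 ± 0.04). SCC2, the cohesin loader, stood at -0.65 ± 0.05, ECO1, the cohesin acetyltransferase, stood at -0.51 ± 0.12 and PDS1, the securin, at -0.46 ± 0.05. MCD1, SCC2 and PDS1 lie on chromosome IV. Here and in the COS, lysine and CLB2 lists below, the direction with 0 calls in edgeR also had 0 members at an unadjusted p under 0.05 and 0 called by DESeq2.

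Of 27 kinetochore and spindle checkpoint genes, 6 were higher, 12 lower and 9 not called, with a median of -0.06. CBF1, which binds centromere DNA and also sulfur gene promoters, was lower (-1.16 ± 0.07), as were DAD1 (-1.15 ± 0.09) and DAM1 (-0.47 ± 0.06) of the ring that couples kinetochores to microtubules. MAD2, of the spindle checkpoint, was higher (0.76 ± 0.06), with 38.2, 39.1 and 39.7 CPM against 64.9, 66.5 and 67.0 CPM. Of 32 genes for silencing factors and histone modifiers, 5 were higher, 14 lower and 13 not called, with a median of -0.11. The named members lay below the reference by less than 2-fold: MSI1 of the chromatin assembly factor (-0.72 ± 0.06), the deacetylase gene HST4 (-0.67 ± 0.08), ADA2 of the SAGA acetyltransferase (-0.66 ± 0.06) and the demethylase gene RPH1 (-0.56 ± 0.04).

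**Figure D2:**
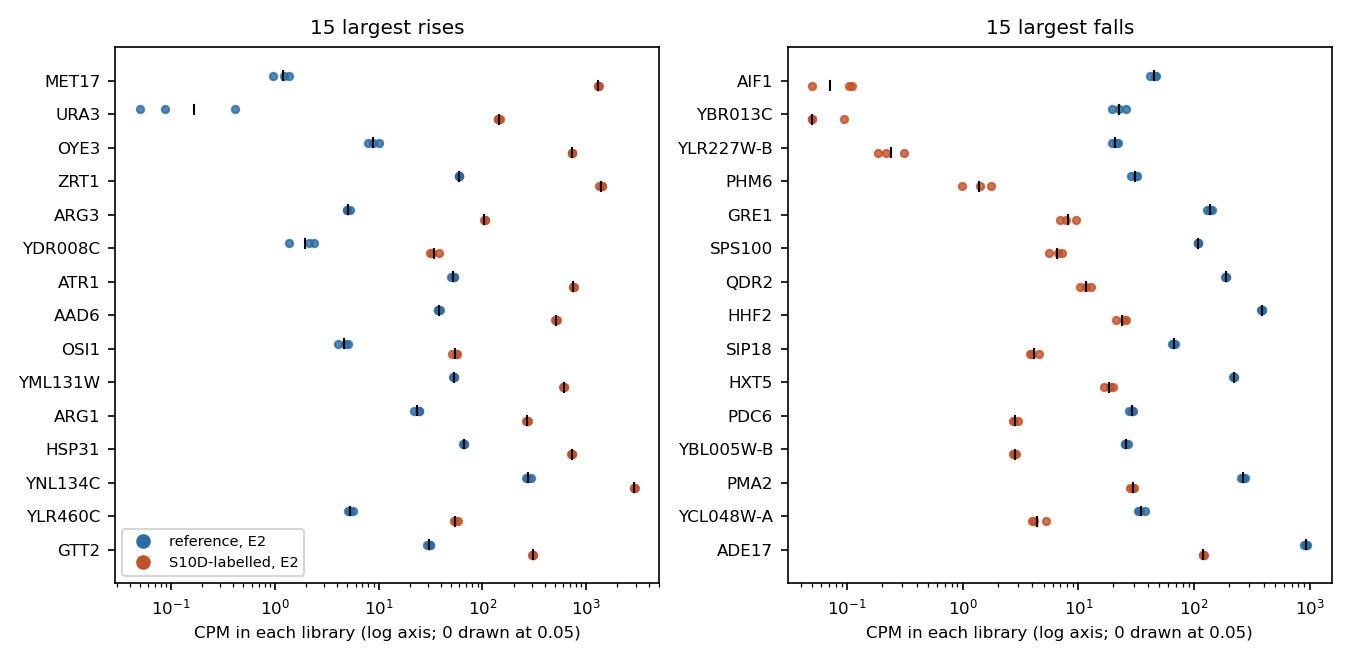
Level in each of the 6 E2 libraries (CPM, log axis; points) and group mean (black bar) for the 15 genes with the largest rises and the 15 with the largest falls among called genes whose mean reached 10 CPM or more. Genes whose groups overlap were left out by the choice of these 30 genes, and the points of a group lie close together except near 0 counts.

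Outside the genotype genes, OYE3 had the largest rise among called genes whose mean reached 10 CPM, followed by ZRT1 and ARG3, which are described with their pathways. OYE3, an NADPH oxidoreductase of the old yellow enzyme family, stood at 10.0, 7.93 and 8.83 CPM in the reference libraries and at 732, 726 and 726 CPM in the S10D-labelled libraries (6.34 ± 0.06, adjusted p = 3.73e-29 in edgeR). Of 10 genes for old yellow enzymes, nitroreductases and aryl-alcohol dehydrogenases (AAD), 9 were tested, 7 of them higher and 2 lower, with a median of 2.35. AAD6 went from 37.5, 37.4 and 38.9 to 495, 510.2 and 520.0 CPM (3.74 ± 0.04). AAD4 (3.06 ± 0.05) and the nitroreductase gene FRM2 (2.63 ± 0.14) were higher too.

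HSP31 and GTT2 were further genes among the 15 largest rises. HSP31, a methylglyoxalase of the DJ-1 family, went from 67.1, 65.9 and 64.7 to 733, 719 and 729 CPM (3.46 ± 0.04). GTT2, a glutathione transferase, went from 29.6, 31.3 and 31.0 to 304, 302 and 308 CPM (3.31 ± 0.05). YML131W (3.52 ± 0.04) and YNL134C (3.38 ± 0.04), which resemble dehydrogenases, and OSI1 (3.55 ± 0.10) and YLR460C (3.35 ± 0.09) were among these rises too. YNL134C reached 2924, 2887 and 2871 CPM, from 260.3, 295 and 277 CPM. YDR008C (4.10 ± 0.15), also among them, has no position in the annotation used here. By its systematic name it is numbered next to TRP1 (YDR007W), a marker locus of the S10D-labelled strain, on the opposite strand. Whether its reads stem from that locus was not tested.

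Genes for drug exporters went both ways. ATR1, a membrane exporter of aminotriazole and boron, went from 53.2, 53.4 and 50.3 to 742, 758 and 744 CPM (3.84 ± 0.04), and FLR1, which exports fluconazole, from 93.7, 84.3 and 89.1 to 595, 621 and 621 CPM (2.78 ± 0.04). TPO2, a polyamine exporter, was higher as well (1.64 ± 0.04). QDR2, an exporter of the same superfamily as ATR1, was lower: 189, 186 and 190.0 CPM in the reference stood against 12.9, 10.3 and 11.7 CPM (-4.02 ± 0.06). Of 21 drug efflux genes, 11 were higher, 7 lower and 3 not called, with a median of 0.20. Of 25 redox defence genes, 13 were higher, 9 lower and 3 not called (median 0.21). GSH1, the rate-limiting enzyme of glutathione synthesis, was higher by 1.78 ± 0.04 and the glutathione reductase gene GLR1 by 1.13 ± 0.04, whereas CTT1, the cytosolic catalase, was lower (-2.14 ± 0.04).

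Promoters were searched for short motifs in the 300 bases before the start codon, on both strands, in RefSeq's R64 sequence. Gene lists were searched whole, including members not called or called the other way. The share of a list therefore describes the list and not the strain difference. The letters TTACTAA, a site bound by Yap1, were chosen after the data had been seen. They were found in 5 of 13 promoters of the largest rises that have an annotated position (38.5%), against 7.82% of all 5988 promoters, but in 2 of 9 promoters of the old yellow enzyme and AAD list and 2 of 21 of the drug efflux list. Those 5 genes are OYE3, OSI1, YNL134C, YLR460C and GTT2. OYE3 and GTT2 are shown because they hold the letters and rose 6.34 and 3.31. The OYE3 window lies at chrXVI:227372-227671 and the GTT2 window at chrXII:21840-22139, both on the minus strand, with the matches in capitals.
OYE3: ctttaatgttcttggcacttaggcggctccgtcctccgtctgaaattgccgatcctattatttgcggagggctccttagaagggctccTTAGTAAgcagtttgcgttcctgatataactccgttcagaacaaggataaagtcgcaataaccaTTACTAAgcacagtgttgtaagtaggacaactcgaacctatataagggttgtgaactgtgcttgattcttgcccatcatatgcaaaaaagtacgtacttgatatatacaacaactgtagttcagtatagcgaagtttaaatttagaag
GTT2: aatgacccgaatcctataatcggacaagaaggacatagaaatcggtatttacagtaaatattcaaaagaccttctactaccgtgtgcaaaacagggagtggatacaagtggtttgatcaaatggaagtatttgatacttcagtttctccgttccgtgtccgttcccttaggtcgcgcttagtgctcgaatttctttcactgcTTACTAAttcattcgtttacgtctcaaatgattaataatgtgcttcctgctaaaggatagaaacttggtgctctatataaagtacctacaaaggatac

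General stress genes were lower almost throughout. This list holds genes that yeast commonly turns up together in many kinds of stress, largely through the activators Msn2 and Msn4. Of its 37 members, 33 were lower, 3 higher and 1 not called, with a median of -1.10, and their summed level lay between 23148 and 24284 CPM in the reference libraries and between 13608 and 13782 CPM in the S10D-labelled libraries. GRE1, a hydrophilin that accumulates under water loss, stood at 144, 137 and 131 CPM in the reference and 6.89, 9.50 and 7.86 CPM in the S10D-labelled strain (-4.07 ± 0.08). SIP18, a related hydrophilin, went from 68.8, 64.7 and 65.9 to 3.94, 3.82 and 4.55 CPM (-4.02 ± 0.09). GND2, the minor 6-phosphogluconate dehydrogenase, went from 223, 225 and 218 to 33.4, 31.4 and 31.4 CPM (-2.79 ± 0.05), and NQM1, a transaldolase, from 204, 216 and 202 to 27.9, 29.4 and 32.3 CPM (-2.79 ± 0.05).

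The stress motif AGGGG was found in 28 of the 37 stress promoters (75.7%), against 22.2% of all promoters. Of the 15 largest falls, 3 hold it (SPS100, PMA2 and YCL048W-A), a share of 20% that is near that of all promoters. Neither GRE1 nor SIP18 holds it in this window. The GND2 window (chrVII:1004324-1004623, plus strand) is shown as a stress promoter with 2 matches, both on the opposite strand and in capitals.
GND2: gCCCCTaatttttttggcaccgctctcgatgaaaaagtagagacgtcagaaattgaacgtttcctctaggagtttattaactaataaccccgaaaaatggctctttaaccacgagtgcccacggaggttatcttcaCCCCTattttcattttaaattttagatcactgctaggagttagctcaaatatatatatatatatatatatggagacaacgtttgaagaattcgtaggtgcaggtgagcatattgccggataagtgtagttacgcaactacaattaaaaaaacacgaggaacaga

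Genes for reserve carbohydrates were lower as well. Of 21 trehalose and glycogen genes, 18 were lower, 2 higher and 1 not called (median -0.73). The glycogen synthase gene GSY2 went from 504, 554 and 557 to 164, 170.5 and 173 CPM (-1.67 ± 0.04). Its paralog GSY1 (-1.26 ± 0.06), the branching enzyme gene GLC3 (-1.47 ± 0.06) and the phosphorylase gene GPH1 (-1.24 ± 0.04) were lower too. Further genes among the 15 largest falls are HXT5, a hexose transporter of slow growth (219 to 223 CPM in the reference against 16.8 to 19.9 CPM, -3.58 ± 0.06), and PMA2, the minor plasma membrane proton pump (-3.18 ± 0.05). PDC6, the minor pyruvate decarboxylase (-3.34 ± 0.13), SPS100, a spore wall gene that overlaps SUT169 on the opposite strand (-4.05 ± 0.08), and YCL048W-A (-2.98 ± 0.12) belong there as well.

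Chaperone genes split. Of 25 heat shock chaperone genes, 16 were higher, 6 lower and 3 not called (median 0.28). The stress-induced Hsp70 genes SSA4 (-1.78 ± 0.04) and SSA3 (-0.89 ± 0.05) and the Hsp110 gene SSE2 (-1.08 ± 0.04) were lower. HSP78, the mitochondrial disaggregase, was higher (0.75 ± 0.04). SSA4 stood at 809, 885 and 849 CPM in the reference and 237, 252 and 251 CPM in the S10D-labelled strain.

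Proteasome genes were higher almost throughout, with 32 of 34 higher, 1 lower and 1 not called, and a median of 0.45. The core subunit genes PRE3 (0.76 ± 0.04), PRE8 (0.72 ± 0.04) and PRE1 (0.70 ± 0.04) and RPN4, the activator of proteasome genes (0.69 ± 0.04), were the largest. RPN4 stood at 153, 155 and 155 CPM in the reference and 251, 241 and 254 CPM in the S10D-labelled strain. Cytosolic ribosomal protein genes were higher by less: 82 of 137 were higher, 19 lower and 36 not called, with a median of 0.11. RPL10 went from 1641, 1593 and 1632 to 2786, 2624 and 2668 CPM (0.73 ± 0.04) and RPL7B was at 0.56 ± 0.05. RPL42B was lower (-0.55 ± 0.12), with 811, 609.9 and 649.8 CPM in the reference against 472, 461 and 477 CPM. RPL41B was also called lower (-0.57 ± 0.16, adjusted p = 0.0303 in edgeR) but lost its call in the fit of 12 libraries (-0.56) and without S10D-labelled replicate 3 (-0.60), reference replicate 1 (-0.46) or reference replicate 3 (-0.59). Of 60 ribosome biogenesis genes, 31 were higher, 7 lower and 22 not called (median 0.10), and of 69 mitochondrial ribosomal protein genes, 23 were higher, 5 lower and 41 not called (median 0.08).

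**Figure D3:**
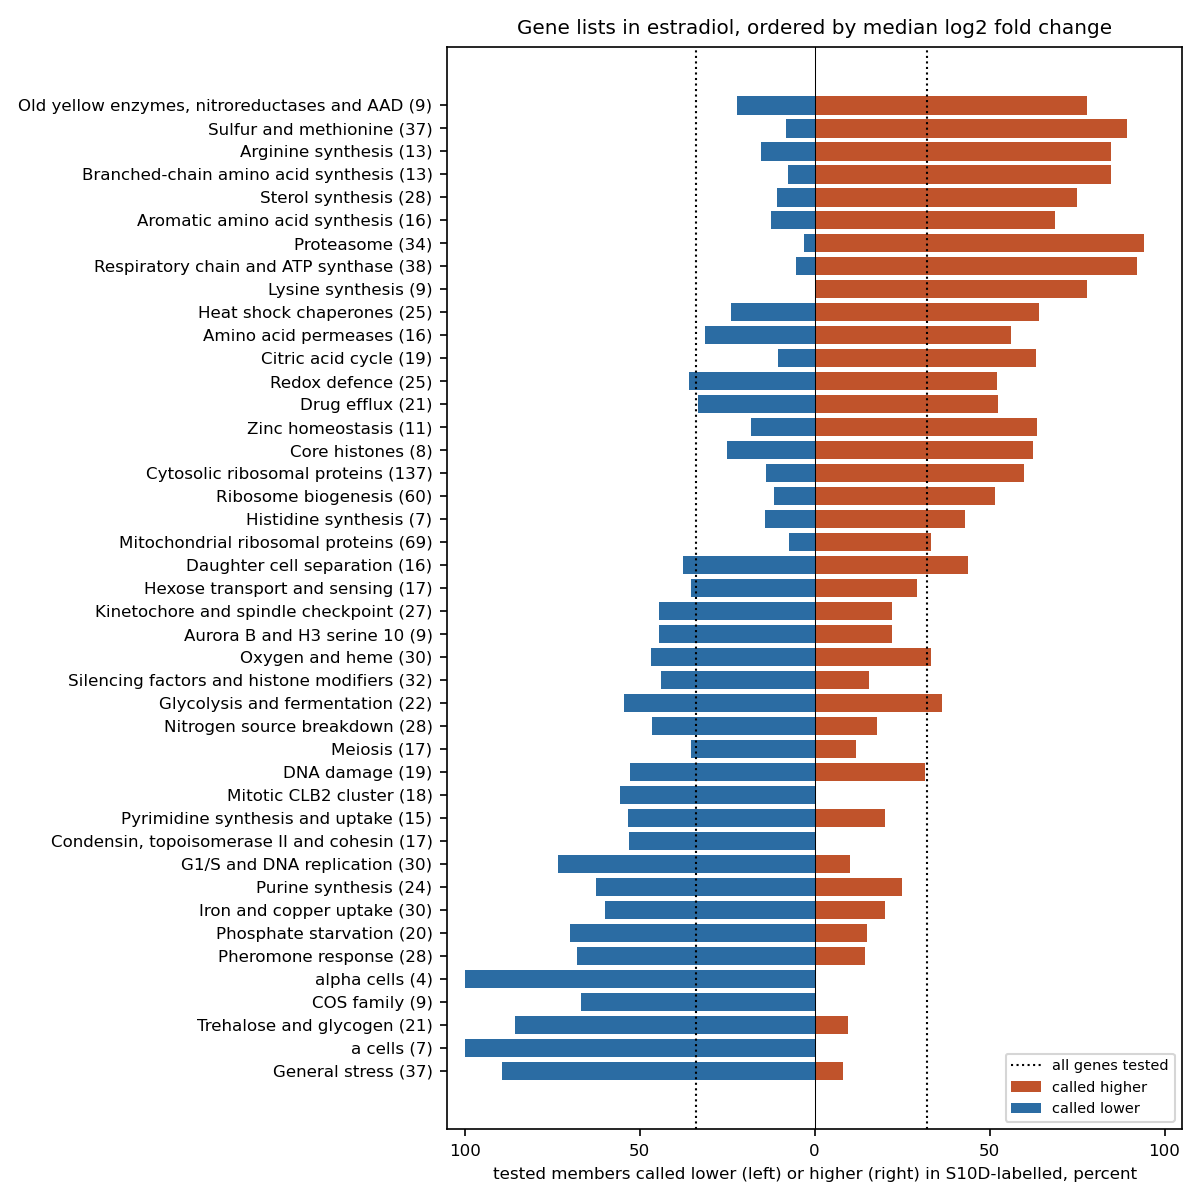
Percent of the tested members of each gene list (number tested in brackets) called higher (right) or lower (left) in the S10D-labelled strain in E2, ordered by the list's median log2 fold change. Dotted lines mark the shares over all genes tested, 32.2% higher and 34% lower. General stress genes stand at the bottom and old yellow enzyme, sulfur and arginine genes at the top.

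Sulfur and amino acid synthesis genes were higher. Of 37 genes of sulfur assimilation and methionine synthesis, 33 were higher, 3 lower and 1 not called, with a median of 0.86. Besides MET17, the largest were the sulfate permease genes SUL1 (2.34 ± 0.24) and SUL2 (2.05 ± 0.05) and MMP1, a permease of S-methylmethionine (2.11 ± 0.05). SUL2 went from 39.9, 42.1 and 39.4 to 161, 174 and 168 CPM. MET16, which reduces activated sulfate, went from 40.7, 38.5 and 34.2 to 139, 130.0 and 131 CPM (1.82 ± 0.06), and was picked for its promoter after its values were seen.

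The letters CACGTG, bound by Cbf1, were found in 12 of 37 sulfur promoters (32.4%) against 3.56% of all promoters, and ACTGTGG, bound by Met31 and Met32, in 14 of 37 (37.8%) against 2.14%. No motif searched here contains another. The MET16 window (chrXVI:877633-877932, minus strand) holds CACGTG, in capitals, 178 bases before the start codon.
MET16: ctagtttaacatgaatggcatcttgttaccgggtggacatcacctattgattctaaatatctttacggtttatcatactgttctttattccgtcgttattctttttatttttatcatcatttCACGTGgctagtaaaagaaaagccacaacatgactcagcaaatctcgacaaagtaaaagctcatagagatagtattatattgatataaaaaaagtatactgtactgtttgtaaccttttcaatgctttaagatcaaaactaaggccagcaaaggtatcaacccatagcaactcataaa

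Among the amino acid genes the largest rises outside the genotype genes were in arginine synthesis. ARG3, ornithine carbamoyltransferase, went from 5.01, 4.94 and 5.31 to 103, 105 and 106 CPM (4.36 ± 0.08). ARG1, argininosuccinate synthetase, went from 22.1, 24.5 and 24.3 to 269, 275 and 263 CPM (3.51 ± 0.05). CPA1, of carbamoyl phosphate synthesis, was higher too (1.33 ± 0.04). Of 13 arginine genes, 11 were higher and 2 lower, with a median of 0.71. In the same strain the arginine breakdown genes CAR2 (-2.10 ± 0.06) and CAR1 (-1.08 ± 0.06) were lower.

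Further amino acid lists had positive medians. Of 13 branched-chain genes, 11 were higher, 1 lower and 1 not called (median 0.67), with LEU1 at 1.44 ± 0.04, BAT1 at 1.13 ± 0.04 and LEU2 as the lower one. Of 16 aromatic genes, 11 were higher, 2 lower and 3 not called (median 0.50), with ARO1 at 1.0 ± 0.04. Of 9 lysine genes, 7 were higher, 0 lower and 2 not called (median 0.29), with LYS1 at 0.80 ± 0.04 after LYS4. Of 7 histidine genes, 3 were higher, 1 lower and 3 not called (median 0.08); apart from HIS3, HIS1 was at 0.48 ± 0.04 and HIS4 was lower (-0.24 ± 0.04). Of 16 amino acid permease genes, 9 were higher, 5 lower and 2 not called (median 0.24). The permeases BAP2 (1.60 ± 0.04) and BAP3 (1.16 ± 0.04) of branched-chain amino acids were higher. The arginine permease CAN1 (-0.92 ± 0.04) and the amino acid permease AGP1 (-0.72 ± 0.04) were lower.

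The letters TGACTC, bound by Gcn4, were found in 33 of 58 promoters of these 5 synthesis lists (56.9%) against 7.77% of all promoters. They were in 6 of 7 histidine, 8 of 13 branched-chain, 4 of 9 lysine and 5 of 16 aromatic promoters. The shares did not rank as the medians did, since the histidine list had the largest share and the smallest median (0.08). Of the 13 arginine promoters, 10 hold them, ARG1 included, while the window of ARG3 does not. The ARG1 window (chrXV:218911-219210, plus strand) has the match on the opposite strand, 274 bases before the start codon.
ARG1: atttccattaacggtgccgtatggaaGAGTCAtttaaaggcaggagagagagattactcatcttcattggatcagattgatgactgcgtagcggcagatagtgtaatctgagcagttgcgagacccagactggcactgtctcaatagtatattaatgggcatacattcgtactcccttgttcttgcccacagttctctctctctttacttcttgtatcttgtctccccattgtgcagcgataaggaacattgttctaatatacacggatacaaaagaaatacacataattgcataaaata

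Nucleotide synthesis leaned the other way. Of 24 purine synthesis genes, 15 were lower, 6 higher and 3 not called (median -0.33). ADE17, of the last steps of purine synthesis, went from 895, 953 and 923 to 123, 118 and 119.6 CPM (-2.94 ± 0.04). ADE2 (-1.91 ± 0.04) was lower and IMD2, inosine monophosphate dehydrogenase, higher (2.64 ± 0.06). Of 15 pyrimidine genes, 8 were lower, 3 higher and 4 not called (median -0.21). Besides URA3, the pathway enzymes URA1 (-1.59 ± 0.04) and URA4 (-0.90 ± 0.04) and the uracil permease FUR4 (-0.66 ± 0.06) were lower.

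Genes of phosphate and metal uptake differed by metal. Of 20 phosphate starvation genes, 14 were lower, 3 higher and 3 not called (median -0.39). PHM6, a gene induced in low phosphate, had 31.5, 28.6 and 32.4 CPM in the reference and 0.985, 1.40 and 1.76 CPM in the S10D-labelled strain (-4.46 ± 0.15). PHO84, the high-affinity phosphate transporter, went from 1373, 1404 and 1353 to 282, 278 and 277 CPM (-2.30 ± 0.04), and overlaps YNCM0001W on the opposite strand. SPL2, a regulator of phosphate uptake (-2.39 ± 0.16), and the acid phosphatase gene PHO11 (-1.91 ± 0.27) were lower too. CACGTG, which Pho4 also binds, was found in 8 of 20 phosphate promoters. PHM6 has it 279 bases before its start codon (window chrIV:1022322-1022621, minus strand), shown because PHM6 had the largest fall of the list.
PHM6: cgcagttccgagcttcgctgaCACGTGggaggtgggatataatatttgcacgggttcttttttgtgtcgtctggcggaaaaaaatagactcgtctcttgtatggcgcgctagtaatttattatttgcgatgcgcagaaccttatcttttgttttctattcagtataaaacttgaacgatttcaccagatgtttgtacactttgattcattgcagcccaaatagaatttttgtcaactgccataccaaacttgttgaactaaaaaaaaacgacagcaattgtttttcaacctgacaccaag

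ZRT1, the high-affinity zinc transporter, went from 59.7, 59.5 and 59.1 to 1336, 1413 and 1409 CPM (4.54 ± 0.04). Of 11 zinc homeostasis genes, 7 were higher, 2 lower and 2 not called (median 0.16), with ZPS1, a cell wall protein of zinc deficiency, at 2.44 ± 0.07, the low-affinity transporter ZRT2 at 1.73 ± 0.04 and VEL1 lower (-1.04 ± 0.24). Of 32 iron and copper genes, 30 were tested, 6 of them higher, 18 lower and 6 not called (median -0.33). The heme oxygenase gene HMX1 (2.13 ± 0.06) and the metal reductase gene FRE1 (1.71 ± 0.04) were higher. The low-affinity iron transporter FET4 (-1.97 ± 0.05) and TIS11, which promotes decay of mRNAs of iron use (-1.58 ± 0.09), were lower.

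Respiration genes were higher almost throughout. Of 38 genes of the respiratory chain and ATP synthase, 35 were higher, 2 lower and 1 not called, with a median of 0.30. CYC1, the main cytochrome c, went from 66.0, 68.1 and 67.5 to 528, 504 and 486 CPM (2.91 ± 0.04), and NDE1, an external NADH dehydrogenase, was at 1.04 ± 0.04. The 2 lower genes were COX5B, the oxidase subunit isoform of low oxygen (-1.25 ± 0.04), and NDE2 (-1.10 ± 0.14). Of 30 oxygen and heme genes, 10 were higher, 14 lower and 6 not called (median -0.08). YHB1, a flavohemoglobin (2.68 ± 0.04), and CYB5, cytochrome b5 (1.54 ± 0.06), were higher. The genes of low oxygen ANB1 (-2.56 ± 0.14) and TIR1 (-2.01 ± 0.08) were lower. ROX1, the repressor of genes of low oxygen, was higher (1.07 ± 0.05), and HAP1, the heme-responsive activator of CYC1, had a mean of 294 CPM in the reference against 173 CPM (-0.76 ± 0.04); both were singled out after their values were seen. Of 19 citric acid cycle genes, 12 were higher, 2 lower and 5 not called, with a median of 0.22.

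Of 28 sterol synthesis genes, 21 were higher, 3 lower and 4 not called (median 0.57). ARE2, which esterifies sterols, went from 144, 161 and 160.2 to 671, 692 and 696 CPM (2.15 ± 0.04). ERG2 (1.16 ± 0.04), ERG25 (1.12 ± 0.04) and ERG13 (0.93 ± 0.04) were higher as well. Of 22 glycolysis and fermentation genes, 8 were higher, 12 lower and 2 not called, with a median of -0.11. The main pyruvate decarboxylase PDC1 was higher (0.96 ± 0.04) while its minor isoform PDC6 was lower, and TDH1, a glyceraldehyde phosphate dehydrogenase isoform, was lower (-1.08 ± 0.04). Of 21 hexose transport and sensing genes, 17 were tested, 5 of them higher and 6 lower, and the low-affinity transporters HXT1 (2.09 ± 0.05) and HXT3 (1.5 ± 0.04) went opposite to HXT5.

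Both strains carry mating type a, and the markers of a cells were expressed in both. All 7 a-cell genes were lower in the S10D-labelled strain (median -0.79), with summed levels of 3251 to 3343 CPM in the reference libraries and 2193 to 2238 CPM in the S10D-labelled. MFA1, a gene for a-factor, went from 199, 173 and 174 to 86.8, 75.3 and 80.2 CPM (-1.18 ± 0.06). ASG7 (-1.26 ± 0.10) and the agglutinin subunit AGA2 (-0.97 ± 0.05) were lower with BAR1. Of 5 markers of alpha cells, 4 were tested and all 4 were lower in the S10D-labelled strain. The summed level of the list was 103 to 109 CPM against 79.6 to 85.9 CPM, below that of the a-cell genes in both strains. The alpha-factor gene MF(ALPHA)1 stood at 1.94 to 2.46 CPM against 0.621 to 0.985 CPM. STE3 stood at 8.02 to 9.37 CPM against 4.19 to 6.73 CPM. Most of the sum therefore came from other members, and not every marker was near 0. Of 18 meiosis genes, 17 were tested, with 2 higher, 6 lower and 9 not called (median -0.12).

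Of 28 pheromone response genes, 19 were lower, 4 higher and 5 not called (median -0.44). FUS1, needed for cell fusion, went from 63.5, 64.4 and 64.7 to 16.3, 18.9 and 15.8 CPM (-1.91 ± 0.07). PRM1, also of cell fusion (-1.79 ± 0.12), FIG1 (-2.47 ± 0.34) and PRM6 (-2.45 ± 0.46) were lower, the last from 1.73, 1.67 and 1.20 to 0.219, 0.279 and 0.310 CPM. TGAAACA, bound by Ste12, was found in 13 of 28 promoters of the list (46.4%) against 7.21% of all promoters. The PRM6 window (chrXIII:181076-181375, minus strand) has it 156 bases before the start codon.
PRM6: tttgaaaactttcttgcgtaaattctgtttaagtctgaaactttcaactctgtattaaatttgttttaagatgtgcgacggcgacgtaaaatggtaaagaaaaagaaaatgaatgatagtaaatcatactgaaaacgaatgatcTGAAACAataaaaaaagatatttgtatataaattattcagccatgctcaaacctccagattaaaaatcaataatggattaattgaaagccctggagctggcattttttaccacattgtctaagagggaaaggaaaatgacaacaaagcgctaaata

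Cell cycle genes also leaned lower. Of 30 genes of G1/S and DNA replication, 22 were lower, 3 higher and 5 not called (median -0.29, and -0.18 without members on chromosome IV). The G1 cyclin genes PCL2 (-1.46 ± 0.05) and PCL1 (-0.96 ± 0.04), the S-phase cyclin gene CLB6 (-1.35 ± 0.12) and the repressor gene YOX1 (-1.10 ± 0.05) were lower. Of 18 genes of the mitotic CLB2 cluster, 10 were lower, 0 higher and 8 not called (median -0.19), with CLB2 at -0.51 ± 0.05, CLB1 at -0.51 ± 0.04, CLB4 at -0.45 ± 0.06 and BUD8 at -0.65 ± 0.05. CLB2 stood at 116, 112 and 122 CPM in the reference and 81.6, 83.5 and 79.5 CPM in the S10D-labelled strain. Daughter cell separation genes went both ways, 7 of 16 higher, 6 lower and 3 not called (median 0.05, and -0.10 without members on chromosome IV). PST1, a cell wall protein, was higher (0.55 ± 0.04) and the daughter-cell genes DSE1 (-0.73 ± 0.04) and SCW11 (-0.62 ± 0.04) were lower. Of 21 DNA damage genes, 19 were tested, 6 of them higher, 10 lower and 3 not called (median -0.15), with RNR3, a ribonucleotide reductase subunit gene, at -0.64 ± 0.09 and HUG1 higher (1.01 ± 0.17).

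The position of the differences on the genome was described next. Chromosome IV, which carries the centromere between lox sites, had 734 tested genes, of which 196 were higher (26.7%) and 317 lower (43.2%). Its median lay 0.09 below that of all other nuclear genes (-0.09). The other 15 chromosomes lay between -0.07 (I) and 0.05 (X). In EtOH the same strain difference put chromosome IV at 0.01. Its share of nuclear counts in E2 was 13.6% ± 0.10 in the reference and 13.1% ± 0.0189 in the S10D-labelled strain (SD, n = 3 each), so that the strains differed by -0.484 percentage points. In EtOH the shares were 12.4% ± 0.125 and 12.6% ± 0.0213. The E2 shares did not overlap, and the exact 2-sided permutation test gave p = 0.1, the smallest that 3 libraries against 3 allow. All but 2 of the 16 chromosomes also reached that p for their shares, so the test does not set chromosome IV apart.

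**Figure D4:**
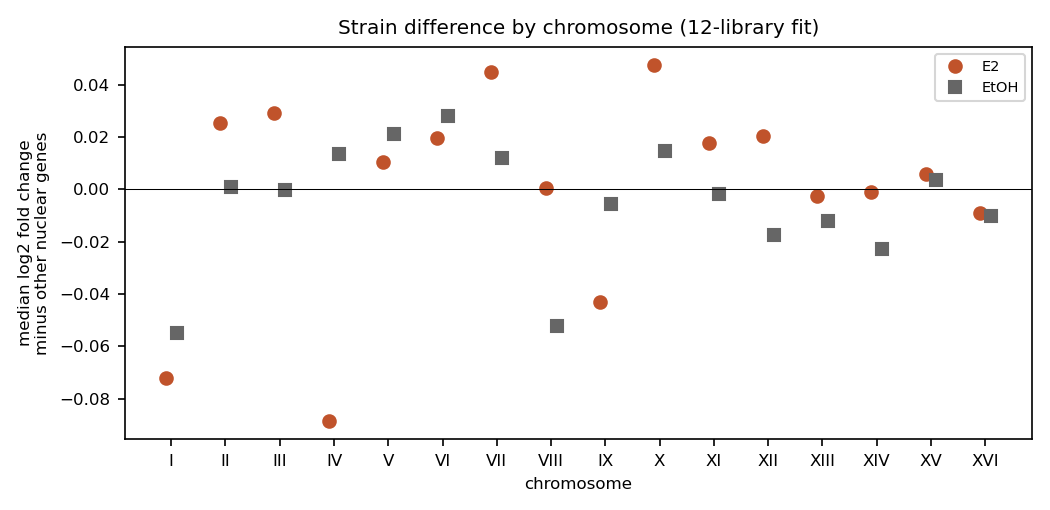
Median strain difference of each chromosome's genes less the median of all other nuclear genes (log2), in E2 (circles) and EtOH (squares), both from the fit of all 12 libraries. Chromosome IV is the lowest in E2 at -0.09 and stands at 0.01 in EtOH.

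Genes near chromosome ends differed by larger amounts, though not more often. Of 275 tested genes within 30 kb of an end, 67.3% were called, against 67.1% of the other nuclear genes, while 17.5% were called at 2-fold or more, against 5.53%. The COS genes, a family of membrane proteins near the ends, had 9 of 12 members tested, 6 of them lower, 0 higher and 3 not called (median -0.51). COS8 went from 147, 148 and 142 to 25.6, 27.8 and 29.7 CPM (-2.39 ± 0.06), COS10 was at -1.98 ± 0.10, COS1 at -1.0 ± 0.10 and COS9 at -0.56 ± 0.06. COS genes resemble each other in sequence, so the division of reads among them is uncertain.

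Runs of neighbouring genes called in the same direction were counted along the chromosomes. There were 44 runs of 5 or more, 22 higher and 22 lower, and the longest held 9 genes. At 2-fold or more, 5 runs held at least 3 neighbours. The longest was the right end of chromosome XIV, from 765375 to 781040, where PDR18, YNR071C, HXT17, MAN2, AIF1 and COS10 were all lower. PDR18, an ABC transporter gene, had 63, 57 and 65 counts in the reference and 0 in each S10D-labelled library, at least 51.8-fold lower against a floor of 3 counts over the group. On the same basis YNR071C was at least 59.9-fold lower, HXT17 at least 13.2-fold and MAN2, a mannitol dehydrogenase gene, at least 15.7-fold. AIF1, a mitochondrial factor of cell death, had 560, 476 and 546 counts against 1, 0 and 1, a ratio of 664 with a 95% counting interval of 184 to 5490.

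The other runs were FLR1, HHF1 and HHT1 on chromosome II, higher, and YHL050C, COS8, ARN2 and DFP4 at the left end of chromosome VIII, lower. MHT1, MMP1 and GTT2 on chromosome XII were higher, and PAI3, SIP18 and YMR175W-A on chromosome XIII lower. Apart from AIF1, genes near 0 in the S10D-labelled strain (at most 10 counts in every library, with at least 100 in every reference library) were YBR013C and YLR227W-B. YBR013C, an uncharacterised gene, had 317, 254 and 228 counts against 0, 1 and 0, a ratio of 671 with a counting interval of 120 to 26535. YLR227W-B, a Ty element open reading frame that overlaps YLR227W-A, had 238, 239 and 256 counts against 2, 2 and 3, and reads of such repeats cannot be assigned to 1 copy. Another Ty frame, YBL005W-B, was lower as well (-3.19 ± 0.13). URA3 was the only gene near 0 in the reference by this rule. Counting intervals and floors cover counting error only.

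The E2 difference was set beside that of the same strains in EtOH, which compares other libraries. The EtOH fit of all 12 libraries took its filter, scaling and spread from the E2 libraries as well, so the calls are not fully separate. In EtOH, by a fit of all 12 libraries, 3481 of 5990 genes were called (58.1%), 1602 higher (26.7%) and 1879 lower (31.4%). In the same fit E2 had 3254 calls. Without reference EtOH replicate 3 the calls were 3989 in E2 and 3935 in EtOH, so the counts do not rank the treatments. The overlap of calls sets the 3932 calls in E2, from the fit of the 6 E2 libraries, beside 3452 in EtOH, both among genes tested in both comparisons. Of 5934 genes tested in both comparisons, 2525 were called in the same direction in both, 64.2% of the calls in E2 and 73.1% of the calls in EtOH, and 180 in opposite directions. Gene and list values of both treatments from here on come from the fit of 12 libraries. Some of the named genes with the largest differences had large ones in both treatments. MET17 stood at 10.09 in E2 and 9.76 in EtOH, OYE3 at 6.35 and 7.36, ZRT1 at 4.55 and 4.89, and ARG3 at 4.36 and 5.08. PHM6 stood at -4.46 and -4.58, QDR2 at -4.01 and -4.43, and AIF1 at -9.13 and -7.99. Other named genes differed much less in EtOH, such as SSE2 (-1.07 in E2 and -0.28 in EtOH) and several given below.

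The difference of the strain differences (E2 minus EtOH) was called for 1224 genes (20.4%), 588 higher (9.82%) and 636 lower (10.6%). Ribosomal protein genes had a list median of 0.12 in E2 and -0.33 in EtOH, with 112 of 137 members called higher in that difference and 0 lower. General stress genes had medians of -1.10 in E2 and -0.28 in EtOH, with 27 of 37 members called lower in that difference and 1 higher. CTT1 stood at -2.14 in E2 and -0.68 in EtOH, GND2 at -2.79 and -1.33, HXT5 at -3.57 and -2.05, and SSA4 at -1.78 and -0.57. Sulfur genes had medians of 0.86 and 1.62, with 22 of 37 lower in the difference and 0 higher, and heat shock chaperone genes 0.28 and 0.62, with 16 of 25 lower and 0 higher. Of the 9 tested genes of the old yellow enzyme and AAD list, with medians of 2.36 and 2.76, 8 were called lower in the difference and 0 higher. Of the 8 core histone genes, 6 were called higher in the difference and 0 lower. Each of these directions with 0 calls in edgeR also had 0 members at an unadjusted p under 0.05 and 0 called by DESeq2. Of the 9 genes of the Aurora B and serine 10 list, edgeR called 0 in the difference and DESeq2 also 0. At an unadjusted p under 0.05, 1 of them was higher and 1 lower. The reference EtOH libraries included 1 that stood apart from its group (replicate 3). Without it, 1994 genes were called in the difference (33.1%), ribosomal protein genes had a median of -0.31 in EtOH with 127 members called higher, and stress genes had -0.13 with 32 called lower. Of the Aurora B and serine 10 list, 1 was then called higher and 2 lower.

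**Figure D5:**
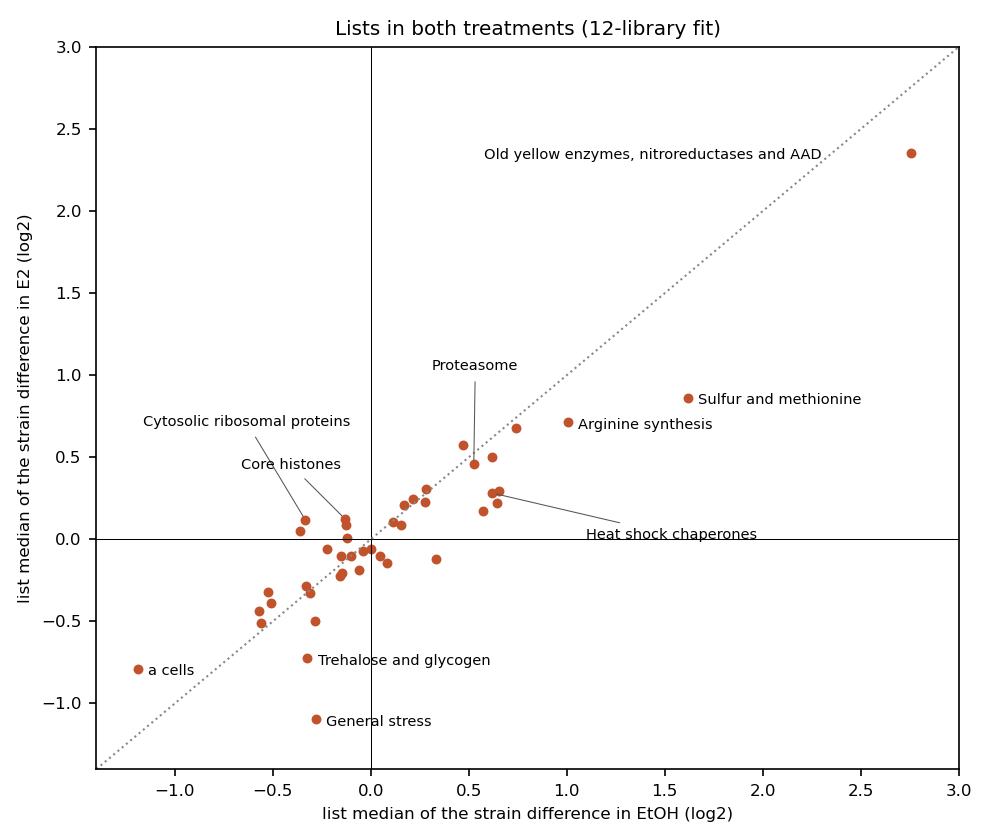
Median strain difference of each gene list in EtOH (horizontal axis) and E2 (vertical axis), log2, from the fit of 12 libraries; the dotted line marks equal values. Cytosolic ribosomal proteins lie at 0.12 in E2 and -0.33 in EtOH, general stress genes at -1.10 and -0.28, and old yellow enzyme genes high in both.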

How the data were processed

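RNA was measured by stranded poly(A) RNA-seq with 400 ng of total RNA as input and 12 cycles of PCR, per the labels' protocols. The authors deposited raw read counts per feature. The submitters' processing notes name bcl2fastq 2.20.0.422, cutadapt 1.10, STAR 2.5.3a and HTSeq 0.6.1p1 and the builds R64 and sacCer3. Their roles, the strand setting and the annotation release are not given in the sources used here, so reads of overlapping genes may not be told apart. Of 7127 features, 6047 were placed on RefSeq's R64 annotation by locus tag and 41 by symbol. The other 1039 held at most 0.442% of the counts of an E2 library and stayed in the test.

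The 6 E2 libraries were grouped by their labels and tested with edgeR 4.0.16 in R 4.3.3 (TMM, robust quasi-likelihood fit, filterByExpr with a minimum count of 10 and a total of 15), with Benjamini-Hochberg adjusted p under 0.05. The SE is the absolute log2 fold change over the square root of F. EtOH values and the difference between treatments come from a fit of 4 group means over all 12 libraries, and again over 11. Alternatives were DESeq2 1.42.0, DESeq2's size factors, TMM without chromosome IV, other filters, a replicate block and leaving out each library. Counting intervals are exact Clopper-Pearson at 95% (scipy 1.17.1), and a count of 0 is given a floor of 3 counts. PCR reads carry no molecular identifiers, so these cover counting error only.

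Named genes are the 15 largest rises and 15 largest falls among called genes whose mean reached 10 CPM and whose groups did not overlap, up to 4 called members of each list described, the genotype genes, the genes near 0 and the whole serine 10 list. MET16, HAP1, ROX1 and the letters TTACTAA were picked after their values were seen. Some genes that the rule names are not reported here. The lists were chosen with earlier results of these data known, and 43 of 56 are described. The list members AAD16, CRS5, MEL1 and FLO8 were not matched to a feature. The steps were tested on simulated data in which few genes differed. How they behave where most genes differ, as called here, was not tested.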

Additional observations from a re-analysis of the deposited data

Results flagged for a closer look

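The results below drew attention because the strain difference itself differed between E2 and EtOH, by the test of that difference in edgeR's fit of 12 libraries (adjusted p under 0.05 over all genes tested). That held for 1224 genes, 82 of which are named in the report, and all 82 were also called in the same direction in the fit of 11 libraries without reference EtOH replicate 3. Each value is the log2 strain difference in E2 minus that in EtOH. A positive value means that the S10D-labelled strain stood higher against the reference in E2 than in EtOH.

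Histone genes had positive values: HTA2 0.66, HHT1 0.65, HHF1 0.56, HTB2 0.51, HHF2 0.45 and HHT2 0.26. The cohesin genes SCC2 (-0.60) and MCD1 (-0.55) and the demethylase gene RPH1 (-0.59) had negative values, while CBF1 had 0.32 and the mitotic cyclin gene CLB1 0.29. The ribosomal protein genes RPL42B and RPL10 had 1.05 and 0.44, and the proteasome activator gene RPN4 had -0.41.

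Among oxidoreductase and detoxification genes, FRM2 had -2.18, AAD4 -1.38, OYE3 -1.01, YML131W -0.94, AAD6 -0.75, GTT2 -0.69, YNL134C -0.69, GSH1 -0.65 and GLR1 -0.22. The exporter genes ATR1 (-0.63) and FLR1 (-0.55) were negative and QDR2 (0.42) was positive. These genes other than QDR2 were higher in the S10D-labelled strain in both treatments, by less in E2.

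Among genes of stress and reserve carbohydrates, CTT1 and GND2 each had -1.46, NQM1 -1.29, SSA4 -1.21, SPS100 -1.20, SSE2 -0.79, GSY2 -0.68, SIP18 -0.53, HSP78 -0.33 and GPH1 -0.27. Other large falls were HXT5 with -1.52, YCL048W-A with -1.60, PMA2 with -1.04, PDC6 with -1.03 and PAI3 with -0.88. TDH1 had -0.41 and HXT3 -0.45.

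Of the sulfur and amino acid genes, SUL2 had -1.35, CPA1 -0.89, ARG1 -0.83, MET16 -0.80, ARG3 -0.72, LYS1 -0.54, ARO1 -0.26 and LEU1 -0.24. The permease genes AGP1 (-0.98), BAP2 (-0.41) and CAN1 (-0.31) and the arginine breakdown genes CAR2 (-0.47) and CAR1 (-0.36) were negative too. Nucleotide genes were positive, with URA1 at 0.75, ADE17 at 0.47, ADE1 at 0.40, IMD2 at 0.31 and URA4 at 0.30.

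Of the genes of phosphate and metals, SPL2 had 1.45, TIS11 0.78, FET4 0.46 and ZRT2 0.17, while HMX1 had -0.71, ZPS1 -0.40 and ZRT1 -0.35. Of the genes of respiration and sterols, ERG2 had 0.44, CYC1 0.42, HAP1 0.37 and COX5B 0.34, while ARE2 had -0.30 and ERG13 -0.18. Mating genes were positive, with MFA1 at 0.78, PRM1 at 0.61, BAR1 at 0.43, AGA2 at 0.42 and FUS1 at 0.42. DSE1 had 0.43, and PST1 (-0.28) and RNR3 (-0.56) were negative. No cause of these differences was tested.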

How the results depend on the processing

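The count of 3932 called genes lay between 3600 and 3915 when each library was left out in turn, at 3549 in DESeq2, 3254 in the fit of 12 libraries, 3989 in the fit of 11, 3997 without a filter and 3707 among genes of at least 10 CPM. The 424 calls of at least 2-fold became 286 at that level and 495 without a filter. Of 206 genes (the 190 of the naming rule and those the report adds), 197 kept their direction and their side of the threshold under every alternative run. The exceptions were BUB1, HST2, HTA2, HTB1, RPL41B, SLI15 and SPO13, which lost their call in 4, 1, 2, 1, 4, 1 and 7 settings, and 2 uncalled genes that changed sign: NBL1, which lay between -0.0896 and 0.0138 over the libraries left out and was above 0 without S10D-labelled replicate 3 (0.0138) or reference replicate 1 (0.00775), and BIR1, between -0.0338 and 0.00691, the last without reference replicate 3. The median of the daughter cell separation list turned from 0.05 to -0.10 without its members on chromosome IV.

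The chromosome IV median of -0.0894 lay between -0.0716 and -0.10 when each library was left out, and at -0.0796 without ribosomal protein genes, where the difference in its share of counts was -0.317 instead of -0.484 percentage points. Calls in the difference between treatments rose from 1224 to 1994 without reference EtOH replicate 3. Genes near 0 at a limit of at most 3 and at least 30 counts numbered 0 in the reference (1 at the limit used) and 7 in the S10D-labelled strain (3 at the limit used). Runs of called neighbours numbered 123 at 4 or more genes and 1 at 5 or more genes with 2-fold differences, against 44. Where no construction explains a change, the cause was not tested.

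The replicate numbers did not pair the libraries, since same-numbered libraries deviated from their group means with correlations of -0.006, 0.039 and -0.022. A fit with the replicate number as a block called 3956 genes. Depth limits the genes with few counts: PRM6, SUL1 and FIG1 have wide errors, and genes at 0 counts give bounds only.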
